A study of Triticum aestivum with 10 samples.

Results

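The genes described are 5 genes of photosynthesis in the developing wheat grain: OEE1 (LOC543291) and OEE2 (LOC543290), which encode the oxygen-evolving enhancer proteins of photosystem II, the plastid thioredoxin Trx-M (LOC542973), the fructose bisphosphatase FBP, and rbcl (LOC100049018), named for the large subunit of Rubisco. Every probe set that the annotation of the Affymetrix wheat array pairs with one of these 5 gene symbols was taken, which gave 34 of the 61179 probe sets on the array that are not controls, and 5 of the 771 genes that the annotation names. RNA came from grain (endosperm and embryo) of hexaploid bread wheat (Triticum aestivum), cultivar Récital. All plants were vernalized (given a period of cold) and then grown in a greenhouse, with no other treatment named. The RNA was hybridized at 5 stages of 2 arrays each. The stages are counted in degree days (DD), the temperature summed over the days since pollination. The label of 100 DD stands for 100 and 130 labelled degree days in replicates 2 and 1, 200 DD for 200 and 185, 250 DD for 250 and 230, 300 DD for 300 and 290, and 500 DD for 500 and 490. The grain came from harvests of different years, and by these times replicate 2 was taken to be the earlier harvest and replicate 1 the later one, so harvest, sampling time and replicate number cannot be told apart. Each value is a log2 value after GCRMA, a normalization that subtracts the background binding estimated from each probe's sequence, so a difference of 1 is a doubling.

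Chloroplasts split water at photosystem II, where the oxygen-evolving proteins hold the manganese cluster in place, and pass the electrons through the cytochrome b6f complex to ferredoxin. Thioredoxins of the m type take electrons from there and switch stromal enzymes on in the light, and in the Calvin cycle Rubisco fixes carbon dioxide while a plastid fructose bisphosphatase helps to renew its acceptor. In a cereal grain the green layer lies in the pericarp, around an endosperm whose plastids turn into starch-filled amyloplasts. The large subunit of Rubisco is coded in the plastid genome of plants. The oxygen-evolving enhancer proteins, the m-type thioredoxins and the plastid fructose bisphosphatase are coded in the nucleus.

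The array labelled 100 DD replicate 2 is shown apart throughout. Over the probe sets tested it correlated with 500 DD replicate 2 at r = 0.987 and with the other 100 DD array at r = 0.628, and 9 of the 10 tested photosynthesis probe sets lay nearer on it to the mean of the 500 DD arrays than to 100 DD replicate 1. OEE1, for example, stood at 7.17 on this array, against 11.17 on 100 DD replicate 1 and a mean of 6.66 at 500 DD. On the same array the OEE2 probe sets stood at 8.14 and 5.50, Trx-M at 6.83, the first FBP probe set at 5.76 and the brightest rbcl probe set at 14.27, against 11.31, 7.98, 9.83, 8.27 and 15.60 on 100 DD replicate 1. The exception was the second FBP probe set, at 4.70 and 4.69. The results below therefore rest on 9 arrays, with 1 array at 100 DD, and the counts with all 10 arrays are given beside them. Marker genes were set beside the labels. Their lists were chosen with earlier results of these data known, so they are no independent check of the tissue. Markers of the starchy endosperm (11 probe sets of 6 genes: gli-2, GAG56D, ATI, WMAI-1, THI1.1 and GBSS) averaged 4.79 on the 100 DD array. They averaged 13.09 to 13.58 on the arrays of 200 to 300 DD, and 13.30 to 13.35 at 500 DD. On the 100 DD array GBSS stood at 9.77 and the other probe sets of this list at 7.06 or less. Embryo and aleurone markers (10 tested probe sets of 5 genes) averaged 2.47 on the 100 DD array. This was close to the median of 2.50 there of all probe sets that stayed under 4. These markers averaged 3.14 to 3.68 at 200 and 250 DD, 5.06 to 5.41 at 300 DD and 12.67 to 12.88 at 500 DD. The tested PER1 probe set of this list was high earlier. It stood at 11.40 in replicate 2 and 8.73 in replicate 1 at 200 DD, and at 12.35 and 12.25 at 250 DD. The other tested probe sets of the list stood at 3.45 or less at 200 and 250 DD. Histone probe sets that mark dividing cells (13 probe sets of 2 genes) averaged 10.96 at 100 DD, 8.92 to 10.67 at 200 to 300 DD and 4.86 to 5.96 at 500 DD.

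The photosynthesis genes were lower at 500 DD than at 200 DD in 8 of the 10 probe sets that could be tested, and none was higher. The falls of OEE1, Trx-M and the brighter OEE2 probe set, all nuclear genes, were 9.71-fold to 16.8-fold, and those of FBP and of 3 rbcl probe sets 2.49-fold to 3.79-fold. The folds are not on equal terms, because 2 of these rbcl probe sets lay within 0.47 of the top of the array at 200 DD, and no fold is given for the other OEE2 probe set, which was near 4 at 500 DD, a level close to background. Trx-M was also not far above that level on 500 DD replicate 1, at 4.55, so its fold is uncertain. A probe set was tested where its log2 value was at least 4 on at least 2 of the 9 arrays, which held for 24727 probe sets of the array and for all 6 probe sets of the 4 nuclear genes, but for only 4 of the 28 of rbcl. With limma, a mean per stage and Benjamini-Hochberg adjusted p under 0.05 over all 24727 probe sets, 7 of the 10 differed over the 5 stages, beside 26.7% of all those tested. At 500 against 200 DD, 8 of 10 were called lower, beside 12.1% of all probe sets. The median difference of the 10 was -1.95 on the log2 scale, and that of all tested probe sets -0.07. At 500 against 300 DD, 5 of 10 were called lower, beside 6.01%, with a median of -1.45 against -0.02 over all. At 200 against 100 DD, 0 of 10 were called lower, beside 4.93%, and 0 were called higher, in a comparison with a single array at 100 DD. With all 10 arrays in the fit the count was 0 in each of these comparisons. Over all probe sets, 107 were then called over the stages, 122 at 500 against 200 DD and 45 at 500 against 300 DD, against 6610, 5396 and 3040 with 9 arrays. At 200 against 100 DD the differences of the 10 were then 0.01 to 1.63, against -0.55 to 1.19 with 9 arrays, and 6 of them turned from negative to positive, OEE1 being at 1.56 with 10 arrays against -0.44 with 9.

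**Figure D1:**
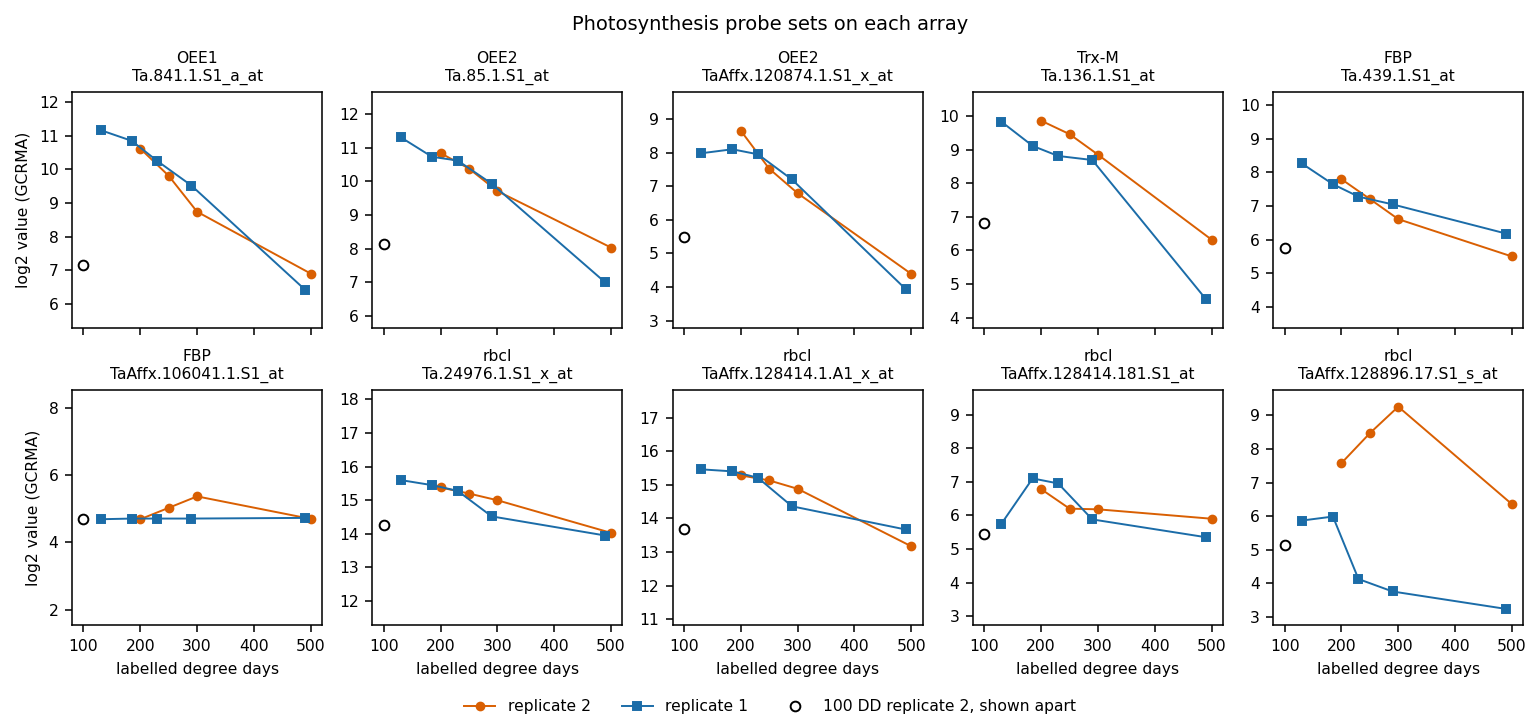
Log2 values (GCRMA) of the 10 tested photosynthesis probe sets against the labelled degree days, 1 point per array, with replicate 2 in orange circles, replicate 1 in blue squares and the array labelled 100 DD replicate 2 as an open circle; all panels span the same log2 range. With the open circle left aside, all probe sets but the second of FBP are lowest at 500 DD in both replicates. In OEE1, both OEE2 probe sets, Trx-M and the first FBP and the first 2 rbcl probe sets, both 500 DD arrays lie below all other arrays. The last rbcl probe set is higher in replicate 2 at all 4 stages measured in both.

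OEE1, also called PsbO, is the protein that stabilizes the manganese cluster of photosystem II. Its probe set Ta.841.1.S1_a_at stood at 11.17 on the 100 DD array, at 10.62 and 10.85 on the 200 DD arrays (replicate 2 first here and below), at 9.81 and 10.25 at 250 DD, at 8.74 and 9.52 at 300 DD and at 6.90 and 6.42 at 500 DD. Both 500 DD arrays lay below all 7 others, and each stage lay below the one before it without overlap. The difference between 500 and 200 DD was -4.07 ± 0.34 (SE), 16.8-fold lower, with limma's adjusted p = 5.5e-04, and 60.7% of it fell between 300 and 500 DD. The difference between 500 and 300 DD was -2.47 ± 0.34 (adjusted p = 0.00641), which no longer passed without 500 DD replicate 1 (-2.23, adjusted p = 0.0526).

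OEE2, or PsbP, is another extrinsic protein of the same complex and was represented by 2 probe sets. Ta.85.1.S1_at stood at 11.31 at 100 DD, 10.84 and 10.73 at 200 DD, 10.38 and 10.62 at 250 DD, 9.71 and 9.93 at 300 DD, and 8.03 and 6.99 at 500 DD. TaAffx.120874.1.S1_x_at stood at 7.98 at 100 DD, 8.65 and 8.10 at 200 DD, 7.52 and 7.95 at 250 DD, 6.79 and 7.20 at 300 DD, and 4.39 and 3.94 at 500 DD. In both probe sets the 500 DD arrays lay below all others, and the levels of 300 DD below those of 100 to 250 DD. At 500 against 200 DD the difference was -3.28 ± 0.35 in the first (SE, 9.71-fold lower, adjusted p = 0.00139) and -4.21 ± 0.31 in the second (adjusted p = 3.8e-04). The second was under 4 on 500 DD replicate 1 and little above it on replicate 2, so it is given no fold and no rank. Of these falls, 70.4% and 67.3% lay between 300 and 500 DD. At 500 against 300 DD the differences were -2.31 ± 0.35 (adjusted p = 0.00919) and -2.83 ± 0.31 (adjusted p = 0.0031), and the first did not pass without 300 DD replicate 1 (-2.20, adjusted p = 0.066).

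The stage means of Trx-M, the m-type thioredoxin, fell at every step, as those of OEE1 did. Ta.136.1.S1_at stood at 9.83 at 100 DD, 9.86 and 9.11 at 200 DD, 9.46 and 8.81 at 250 DD, 8.85 and 8.69 at 300 DD, and 6.32 and 4.55 at 500 DD. The arrays of neighbouring stages overlapped up to 300 DD, and 82.3% of the fall between 200 and 500 DD came after 300 DD, the highest share of the 8 probe sets called. The difference was -4.05 ± 0.59 (SE) at 500 against 200 DD (16.6-fold lower, adjusted p = 0.00455) and -3.33 ± 0.59 at 500 against 300 DD (10.1-fold lower, adjusted p = 0.0154). Without 500 DD replicate 2 these differences were -4.94 and -4.22, and without 500 DD replicate 1 they were -3.17 and -2.45. The call at 500 against 300 DD was lost when 300 DD replicate 1 was left out (-3.41, adjusted p = 0.0797) and when 300 DD replicate 2 was (-3.26, adjusted p = 0.0753). The 500 DD arrays were 1.77 apart, so the standard error of Trx-M was the widest among the nuclear genes. The 4.55 on 500 DD replicate 1 was not far above 4, close to background, so the folds and the share after 300 DD are uncertain.

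FBP, which in the Calvin cycle removes a phosphate from fructose bisphosphate, had 2 probe sets. Ta.439.1.S1_at stood at 8.27 at 100 DD, 7.80 and 7.65 at 200 DD, 7.21 and 7.28 at 250 DD, 6.61 and 7.05 at 300 DD, and 5.50 and 6.18 at 500 DD. Each stage lay below the one before it with no overlap. The difference at 500 against 200 DD was -1.88 ± 0.29 (SE, 3.69-fold lower, adjusted p = 0.00581), of which 52.5% came after 300 DD, and the difference between 500 and 300 DD of -0.99 ± 0.29 did not pass (adjusted p = 0.077). TaAffx.106041.1.S1_at lay between 4.69 and 4.73 on 7 of the 9 arrays, with 5.03 at 250 DD and 5.37 at 300 DD in replicate 2. This near-constant low level may be background, and no course of the gene is read from it. Its difference between 500 and 200 DD was 0.01 ± 0.27 (adjusted p = 0.981) and its test over the stages gave an adjusted p of 0.788.

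The annotation pairs 28 probe sets with rbcl, and they fall into 3 levels. Ta.24976.1.S1_x_at and TaAffx.128414.1.A1_x_at lay between 13.17 and 15.60, TaAffx.128414.181.S1_at and TaAffx.128896.17.S1_s_at between 3.24 and 9.26, and the other 24 between 1.89 and 4.07. Of those 24, 22 were under 4 on all 9 arrays and 2 reached 4 on 1 array, which was 250 DD replicate 2 in both (4.07 for Ta.14567.2.S1_at and 4.06 for TaAffx.128414.82.S1_at). The RefSeq gene table (IWGSC CS RefSeq v2.1) matched all 34 probe sets, lists no plastid genes and places the rbcl entry on a nuclear chromosome. Whether a probe set reads the plastid gene or a copy in the nucleus could therefore not be settled from the sources used here, and rbcl is called plastid-coded from textbook knowledge alone. The RNA was labelled from an oligo(dT) primer, which copies RNA with a poly(A) tail, and plastid transcripts mostly lack a stable one. The part of the primer in these levels was not tested.

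**Figure D2:**
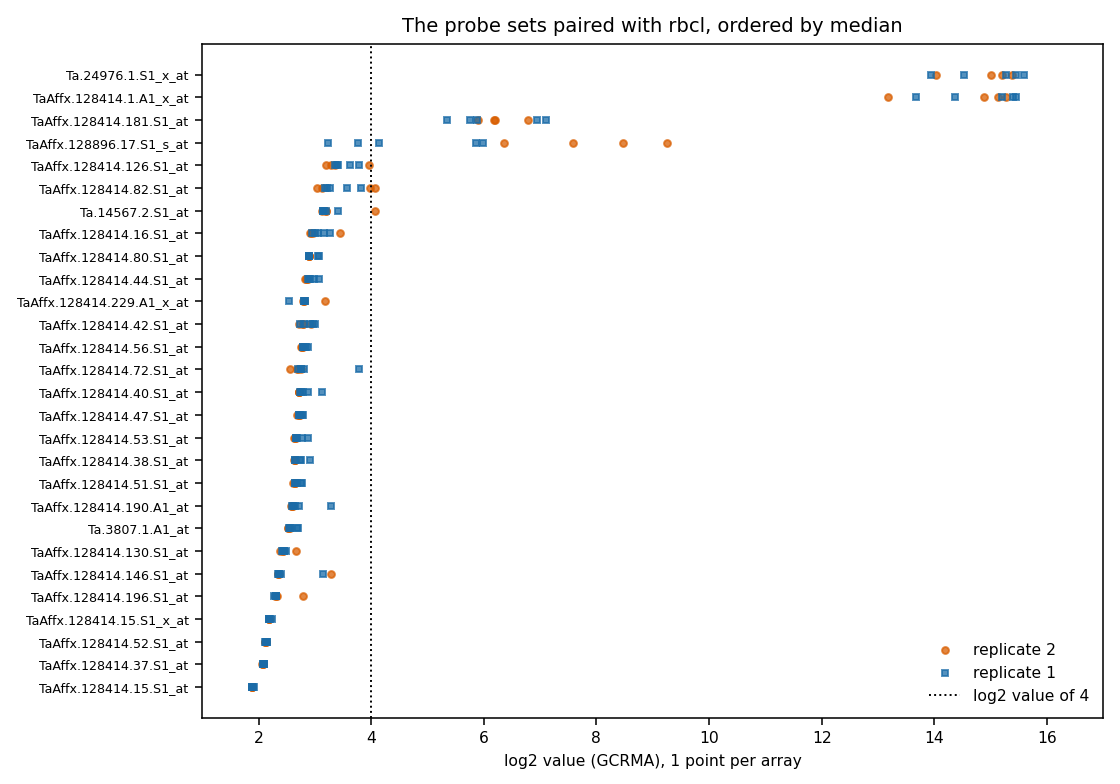
Log2 values (GCRMA) of the 28 probe sets paired with rbcl on 9 arrays, 1 point per array, ordered by median with the highest on top, replicate 2 in orange circles and replicate 1 in blue squares. A dotted line marks the log2 value of 4, and 22 probe sets lie wholly left of it while 2 lie near the top of the range of the array.

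Ta.24976.1.S1_x_at was among the brightest probe sets of the whole array. It stood at 15.60 at 100 DD, 15.38 and 15.45 at 200 DD, 15.20 and 15.28 at 250 DD, 15.00 and 14.52 at 300 DD, and 14.03 and 13.95 at 500 DD. On the 100 DD array 0 probe sets were above it, and on the 200 DD arrays 1 probe set each. At 300 DD, 11 probe sets were above it in replicate 2 and 40 in replicate 1, and at 500 DD 84 and 91. Its difference between 500 and 200 DD was -1.42 ± 0.23 (SE, 2.68-fold lower, adjusted p = 0.00693), and that between 500 and 300 DD, -0.77 ± 0.23, did not pass (adjusted p = 0.0806). Its call over the 5 stages (adjusted p = 0.0165) was lost without 500 DD replicate 1 (0.0822) or without 500 DD replicate 2 (0.073).

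TaAffx.128414.1.A1_x_at followed it closely, with r = 0.98 across the 9 arrays as a description, and the x in both names marks probes that can bind more than 1 transcript. It stood at 15.46 at 100 DD, 15.28 and 15.40 at 200 DD, 15.13 and 15.21 at 250 DD, 14.88 and 14.36 at 300 DD, and 13.17 and 13.67 at 500 DD. The 500 DD arrays lay below all others in both of these probe sets. The difference at 500 against 200 DD was -1.92 ± 0.27 (SE, 3.79-fold lower, adjusted p = 0.00424), and at 500 against 300 DD -1.20 ± 0.27 (adjusted p = 0.0363). The call at 500 against 300 DD was lost in 8 of the 9 fits that left out 1 array, at an adjusted p of 0.059 to 0.155, and was kept only without 100 DD replicate 1. Its call over the 5 stages (adjusted p = 0.0111) was lost without 500 DD replicate 2 (0.0615). Both probe sets were within 0.47 of the highest value of the array at 100 and 200 DD, where a probe set near the top of its range has little room to read higher, and the part of this in the size of the differences was not tested.

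The 2 rbcl probe sets of middle level went separate ways. TaAffx.128414.181.S1_at stood at 5.75 at 100 DD, 6.78 and 7.10 at 200 DD, 6.20 and 6.95 at 250 DD, 6.18 and 5.88 at 300 DD, and 5.90 and 5.35 at 500 DD. It was highest at 200 DD, and the 500 DD arrays overlapped those of 100 and 300 DD. Its difference at 500 against 200 DD was -1.32 ± 0.34 (SE, 2.49-fold lower, adjusted p = 0.0357), with 30.8% of this after 300 DD, and the test over all 5 stages was not passed (adjusted p = 0.0955). The call at 500 against 200 DD was lost without either array of 200, 300 or 500 DD, at adjusted p of 0.0556 to 0.161. TaAffx.128896.17.S1_s_at was lowest at 500 DD in both replicates, but from 200 to 300 DD it rose in replicate 2 and fell in replicate 1. Its difference at 500 against 200 DD was -1.99 ± 2.16 (adjusted p = 0.576).

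**Figure D3:**
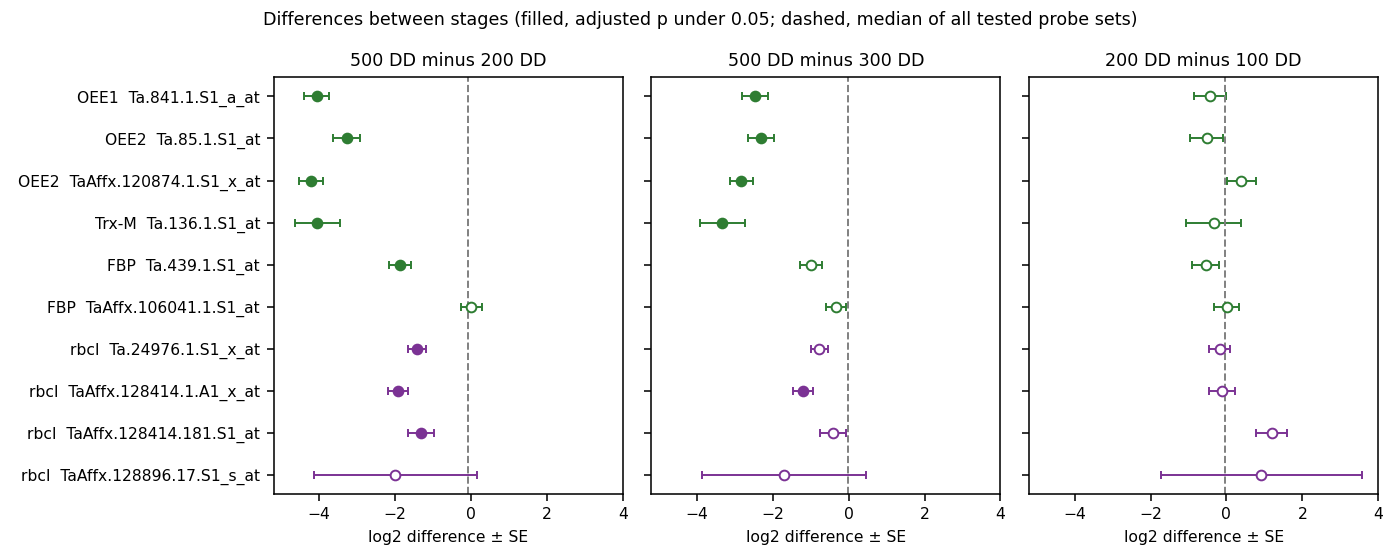
Log2 differences between stages (limma, ± SE) of the 10 tested probe sets, for 500 minus 200 DD, 500 minus 300 DD and 200 minus 100 DD, with nuclear genes in green and rbcl in purple. Filled points have an adjusted p under 0.05, the dashed line is the median of all 24727 tested probe sets, and the points for OEE1, OEE2 and Trx-M lie farthest below it in the first 2 panels.

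The nuclear genes and rbcl were set side by side. At 500 against 200 DD, 5 of 6 nuclear probe sets were called lower, with a median difference of -3.67 and a range of -4.21 to 0.01, and 3 of 4 rbcl probe sets, with a median of -1.67 and a range of -1.99 to -1.32. At 500 against 300 DD, 4 of 6 nuclear and 1 of 4 rbcl probe sets were called, with medians of -2.39 and -0.99. At 200 against 100 DD the medians were -0.39 and 0.40, with 0 called in either. Both 500 DD arrays lay below all 7 others in 5 of 6 nuclear and 2 of 4 rbcl probe sets, beside 15.7% of all tested probe sets. The difference between nuclear and plastid-coded genes itself was not tested, because it rests on 4 genes against 1. The medians are not on equal terms either, since 2 rbcl probe sets lay within 0.47 of the top of the array at 100 and 200 DD, where a fall can read too small, while 1 OEE2 probe set was near 4 at 500 DD and 1 FBP probe set was low and near-constant on all arrays. The probe sets of OEE1, OEE2 and Trx-M, the first of FBP and the 2 bright ones of rbcl correlated with each other at r = 0.81 to 0.98 across the 9 arrays (median 0.93), and at 0.64 or more (median 0.77) across the 7 arrays without 500 DD, as a description of arrays that share their stages. These are the 7 probe sets called over the 5 stages, so their likeness follows in part from that choice. The second FBP probe set correlated with them at -0.18 to 0.16. The middle-level rbcl probe sets did so at 0.44 to 0.70 (TaAffx.128414.181.S1_at) and 0.10 to 0.49 (TaAffx.128896.17.S1_s_at).

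Few other genes of the pathway were found. The search covered gene symbols and synonyms only, so a gene given as a LOC number without a telling synonym would be missed. The rule for photosynthesis names found 1 more gene, petC, which encodes the Rieske iron-sulfur protein of the cytochrome b6f complex, with 2 probe sets of which 1 was tested. Ta.861.1.S1_at (petC) stood at 11.58 at 100 DD, 11.36 and 11.18 at 200 DD, 10.72 and 10.71 at 250 DD, 10.50 and 10.32 at 300 DD, and 8.70 and 8.01 at 500 DD. It differed over the stages (adjusted p = 0.00231) with a difference at 500 against 200 DD of -2.92 ± 0.27 (SE, adjusted p = 8.0e-04). The untested petC probe set lay at 2.33 to 2.64. PRK (LOC543283), phosphoribulokinase of the Calvin cycle, was added after its values were seen. The rule had missed it, because it held the full name and the synonyms give only the abbreviation. It stood at 10.95 at 100 DD, 11.22 and 10.34 at 200 DD, 10.57 and 10.25 at 250 DD, 9.95 and 10.25 at 300 DD, and 8.59 and 8.22 at 500 DD, and its difference at 500 against 200 DD was -2.37 ± 0.34 (SE, adjusted p = 0.00449).

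The marker lists did not all go the same way as these genes. All 13 histone probe sets of dividing cells were lower on both 500 DD arrays than on the other 7, beside 15.7% of all tested probe sets. All 10 embryo and aleurone probe sets were higher there, a share not counted over all probe sets. These lists were chosen with earlier results of these data known. All 11 endosperm probe sets were lowest on the 100 DD array. Against the 6 arrays of 200 to 300 DD alone, 1 of the 11 was lower on both 500 DD arrays and 0 were higher. The shares of all probe sets that did the same were not counted for these endosperm counts either, so none of them is read as unusual. The part of these cell types in the fall of the photosynthesis genes was not tested, and in RNA of a whole tissue fewer cells of a type and less RNA per cell cannot be told apart. The tissue is given as endosperm and embryo, so pericarp is not named as part of it, and no pericarp markers were among the lists. By Pearson's r across the 9 arrays, among tested probe sets with 1 other gene symbol, OEE1 was most like LOC100037649 (0.988), LOC543361 (0.987) and LOC543445 (0.986). OEE2 (Ta.85.1.S1_at) was most like LOC543445 (0.996), LOC100049048 (0.994) and LOC543448 (0.991), and Trx-M most like LOC100125731 (0.988), LOC543337 (0.987) and petC (0.977). FBP (Ta.439.1.S1_at) was most like LOC542827 (0.991), LOC543355 (0.985) and XTH (0.975), and rbcl (Ta.24976.1.S1_x_at) most like LOC778417 (0.966), LOC543445 (0.96) and LOC543137 (0.959). These values describe arrays that share their stages and their normalization, and LOC543445 is in the lists of 3 of the 5 genes.

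The gap between the replicates, replicate 2 minus replicate 1 at the same stage, could be read at 4 stages. With limma and a mean per stage, 0 of the 10 probe sets were called between the replicates, beside 0% of all tested probe sets, 4526 of which had an unadjusted p under 0.05. A single rbcl probe set stood far from the rest. TaAffx.128896.17.S1_s_at stood in replicate 2 at 7.58, 8.47, 9.26 and 6.36 at 200, 250, 300 and 500 DD, against 5.99, 4.13, 3.76 and 3.24 in replicate 1, which had 5.87 at 100 DD. Replicate 1 was under 4, close to background, at 300 and 500 DD, so the gap is given without a fold. The values of replicate 2 lay above all 5 of replicate 1, and the array labelled 100 DD replicate 2 stood at 5.15. The gap was 1.59, 4.34, 5.50 and 3.12 at the 4 stages, and averaged 3.64 ± 0.60 (SE), with an unadjusted p of 8.4e-04 and an adjusted p of 0.0707 by limma. The gap was 2.77 to 4.32 under the 16 alternatives, with adjusted p of 0.0232 to 1, and passed in 3 of them. It passed where the labelled degree days, as a smooth curve, took the place of the stage means (3.77, adjusted p = 0.0232) and when either 200 DD array was left out (4.32 both times, adjusted p = 0.0416 without replicate 2 and 0.0414 without replicate 1). With all 10 arrays it was 2.77 (adjusted p = 0.321), without the filter on low values its adjusted p was 0.295, and with a 250 DD, 300 DD or 500 DD array left out it was 3.40 (0.289 and 0.301), 3.02 (0.191 and 0.206) and 3.81 (0.13 and 0.132).

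The remaining rbcl probe sets had small gaps. They were -0.09 to 0.48 for Ta.24976.1.S1_x_at, -0.50 to 0.52 for TaAffx.128414.1.A1_x_at and -0.76 to 0.55 for TaAffx.128414.181.S1_at, each positive at some stages and negative at others, with mean gaps of 0.10 ± 0.16, -0.05 ± 0.20 and -0.05 ± 0.25 (SE). Among the 24 untested rbcl probe sets, 19 had every gap under 0.5 in size and 5 a gap of 0.5 or more. Their values lay between 1.89 and 4.07, near background, where a gap has little room to show. The median of their largest gaps was 0.25 and the highest 1.04, for TaAffx.128414.72.S1_at at 200 DD, where replicate 1 was higher. Of these 24, 12 had their highest value on 500 DD replicate 1, as did 44.7% of the 33997 probe sets of the array that stayed under 4 on all 9 arrays. The median of those low probe sets was 2.58 on that array and 2.49 to 2.55 on the other 8.

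Of the nuclear genes, Trx-M alone was higher in replicate 2 at all 4 stages, with gaps of 0.74, 0.65, 0.16 and 1.77 at 200, 250, 300 and 500 DD and a mean of 0.83 ± 0.27 (SE, adjusted p = 0.201 by limma). The mean gaps of the other 5 nuclear probe sets were -0.26 to 0.23, and their largest gap was 1.03, in OEE2 (Ta.85.1.S1_at) at 500 DD. An 18S ribosomal RNA control probe set, which reads RNA without a poly(A) tail, had gaps of 4.42, 0.70, 2.65 and -0.19 at the same stages. Its order over the stages was not that of TaAffx.128896.17.S1_s_at, and its part in that gap was not tested.

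**Figure D4:**
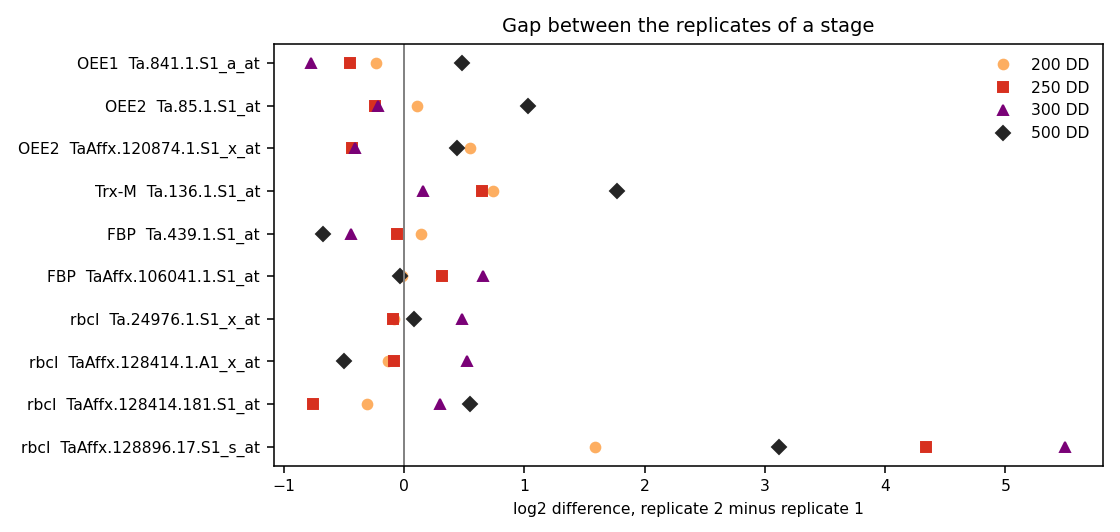
Log2 difference between replicate 2 and replicate 1 of the 10 tested photosynthesis probe sets, 1 point per stage for 200, 250, 300 and 500 DD. The points of TaAffx.128896.17.S1_s_at lie between 1.59 and 5.50, and those of Trx-M between 0.16 and 1.77, while the other 8 probe sets have points on both sides of 0.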

How the data were processed

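The authors normalized 10 Affymetrix wheat arrays with GCRMA and deposited 1 table of log2 values, used here as given. GCRMA was of a version not given in the sources used here. Probe intensities were not used here. The number of arrays limits the precision. Fits used limma 3.58.1 and statmod 1.5.0 in R 4.3.3, with a mean per stage on 9 arrays and Benjamini-Hochberg adjustment over the 24727 probe sets that reached a log2 value of 4 on 2 or more arrays. The 111 control probe sets were left out. Replicates differed by the coefficient of replicate 2 in a fit with stage means. The functions were tested on simulated data. The members, lists and alternatives were chosen with earlier results of these data known. Named genes were all probe sets of the 5 genes, the 3 most similar genes of each, and other photosynthesis names past the test over the stages. Same-numbered arrays were taken to come from 1 harvest, by the labelled degree days. Deviations from the stage means also correlated at 0.249 to 0.718 in all 6 pairs of the stages of 200 to 500 DD. The main tests between stages left this pairing out, and the fits with a replicate block were alternatives. Of 61179 probe sets, 1273 have 1 gene symbol and 59906 none, and 1272 of the 1273 matched RefSeq. Names ending in _a_at, _s_at or _x_at, 5 of the 10 tested, can match several transcripts or homoeologs. The alternatives were the arrays, the filter, the normalization, the adjustment, the replicate block, the methods' t-test and a spline of degree days. No RefSeq sequence of these genes was used.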

Additional observations from a re-analysis of the deposited data

Results flagged for a closer look

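The course of the rbcl probe set TaAffx.128896.17.S1_s_at between 200 and 300 DD had opposite signs in the replicates. The difference, 300 minus 200 DD on the log2 scale, was 1.67 in replicate 2 and -2.23 in replicate 1. Each difference rests on 1 array per stage, and the difference between the replicates in this course was not tested.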

How the results depend on the processing

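Of 379 results of single probe sets called in the main setting and recomputed under an alternative, 280 kept the call, 99 lost it and 0 changed sign. Of 496 not called, 5 gained a call. Among the 706 results with a sign, 30 turned it, all of them not called, 9 of these with all 10 arrays. Quantile normalization, median centring, a filter at a log2 value of 6, and the replicate block, fixed or random, left all 195 such results on their side of the threshold. With the fixed replicate block the counts were 7 over the stages, 8 at 500 against 200 DD, 5 at 500 against 300 DD and 0 at 200 against 100 DD, as without it. With all 10 arrays, or with Bonferroni adjustment, the first 3 counts were 0. The methods' t-test with a variance per gene called 0 at 500 against 200 DD and 0 at 500 against 300 DD, by Bonferroni and by Benjamini-Hochberg. With a common variance and Bonferroni it called 4 and 2. Without the filter, 3 were called at 500 against 300 DD. With degree days as a spline, 1 was called between the replicates. Leaving out 1 array in turn gave 5 to 7 over the stages, 7 to 8 at 500 against 200 DD, 2 to 5 at 500 against 300 DD, 0 at 200 against 100 DD and 0 to 1 between the replicates. At 500 against 300 DD it gave 2 without 300 DD replicate 1, 3 without 300 DD replicate 2 and 3 without 500 DD replicate 1. Without 100 DD replicate 1 the test over the stages covered 4 stages, and that at 200 against 100 DD was not run because no 100 DD array was left. The causes were not tested. Over all probe sets, Bonferroni left 227 over the stages, 225 at 500 against 200 DD, 115 at 500 against 300 DD and 140 at 200 against 100 DD, where 2461 passed before and 67 with all 10 arrays. The methods' t-test called 0, 8 and 1902 of all probe sets at 500 against 200 DD, and 1, 1 and 925 at 500 against 300 DD (variance per gene with Bonferroni, variance per gene with Benjamini-Hochberg, and common variance with Bonferroni). Between the replicates, 217 passed with the filter at 6, 36 with quantile normalization, 53 with median centring and 577 with the spline. Leaving out 1 array gave 3549 to 6046 over the stages, 2801 to 5407 at 500 against 200 DD, 1099 to 3091 at 500 against 300 DD, 1068 to 2068 at 200 against 100 DD and 0 to 156 between the replicates. Probe sets near 4 lie close to the background, and those near 15.60 close to the top of the array.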
